A study of Homo sapiens with 5 samples.

Results

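The BCL2 family decides whether a cell's mitochondria are opened for apoptosis, and here its transcripts were followed in MDA-MB-468 cells under afatinib. MDA-MB-468 is a triple-negative breast cancer line with an amplified EGFR gene, and afatinib is a tyrosine kinase inhibitor that binds EGFR irreversibly. The members were taken by symbol from the list of counted genes, and all 10 on the list were found among 12474 genes: BCL2, BCL2L1, BCL2L2 and MCL1, which protect cells, and BAX, BAK1, BID, BBC3, HRK and BCL2L11, which promote death. Single cells were profiled with a 3′ Chromium kit in 5 libraries, namely 1 library each of cells after 3, 6 and 9 days in 250 nM afatinib (D3, D6, D9) and 2 libraries of untreated cells at day 0 (D0, replicates 1 and 2). All groups shared the same barcoded population, in which a lentivirus had inserted an expressed lineage barcode with a Venus reporter and a puromycin marker, and per the study's methods treated cells were frozen when collected, and frozen samples were thawed before capture. The untreated libraries came from separate captures sequenced on different flow cells, and no label calls them separate cultures, so the p-values given here cover the spread among libraries, which may be technical.

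In healthy cells the anti-death proteins BCL2, BCL-XL (from BCL2L1), BCL-W (from BCL2L2) and MCL1 sit at the mitochondrial outer membrane and hold BAX and BAK1 in check. BAX and BAK1 are the effectors that form pores in that membrane, through which cytochrome c leaves to start the caspase cascade. BID, PUMA (from BBC3), Harakiri (HRK) and BIM (from BCL2L11) share only the BH3 segment of the family, and they act by occupying the anti-death proteins or by activating the effectors. In cells that depend on EGFR, signalling through ERK marks BIM protein for destruction, and BIM and PUMA are known as mediators of death after EGFR inhibition. Protein levels and their modification are outside these measurements.

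The promoters of 4 pro-death members, chosen after their values were seen because their levels took different courses over the days, are shown to place the transcripts on the genome. Of the 10 members, 8 had an entry in the RefSeq promoter table (GRCh38.p14), and the windows cover 250 bases before the start that RefSeq gives. RefSeq starts can differ from those of GENCODE 44, by which BCL2L11 starts further upstream, at chr2:111119378, so that its whole window lies inside the gene, and the windows of BBC3, BAX and BAK1 run partly into theirs. BIM is a known target of FOXO factors and PUMA of p53, so the windows were searched on both strands for GTAAACA (a FOXO site), a p53 half-site, CACGTG (an E-box, whose reverse is identical), GGGCGG (a GC box), CCAAT and TATAAA, and matches are in capitals. The windows are BCL2L11 at chr2:111120664-111120913 on the + strand, BBC3 at chr19:47232668-47232917 on the - strand, BAX at chr19:48954625-48954874 on the + strand and BAK1 at chr6:33580277-33580526 on the - strand, each written 5′ to 3′ along the gene.
BCL2L11: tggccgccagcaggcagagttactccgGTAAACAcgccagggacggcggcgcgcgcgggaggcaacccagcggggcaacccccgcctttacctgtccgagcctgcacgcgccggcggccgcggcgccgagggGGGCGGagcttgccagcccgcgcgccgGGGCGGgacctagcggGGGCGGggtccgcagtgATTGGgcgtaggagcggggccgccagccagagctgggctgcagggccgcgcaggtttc
BBC3: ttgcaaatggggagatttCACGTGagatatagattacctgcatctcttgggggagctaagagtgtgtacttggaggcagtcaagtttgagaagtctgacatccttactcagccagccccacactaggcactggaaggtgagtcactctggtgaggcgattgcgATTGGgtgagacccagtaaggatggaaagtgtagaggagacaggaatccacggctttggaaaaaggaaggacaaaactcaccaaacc
BAX: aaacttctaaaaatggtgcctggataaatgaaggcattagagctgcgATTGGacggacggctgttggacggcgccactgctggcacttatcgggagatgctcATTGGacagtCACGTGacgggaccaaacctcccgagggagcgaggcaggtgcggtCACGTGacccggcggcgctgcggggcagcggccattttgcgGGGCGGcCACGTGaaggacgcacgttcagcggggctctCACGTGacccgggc
BAK1: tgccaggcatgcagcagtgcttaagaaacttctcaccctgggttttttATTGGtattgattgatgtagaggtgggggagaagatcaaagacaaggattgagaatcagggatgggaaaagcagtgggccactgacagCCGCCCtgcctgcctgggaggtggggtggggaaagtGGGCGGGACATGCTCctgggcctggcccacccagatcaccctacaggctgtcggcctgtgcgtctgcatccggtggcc

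BCL2L11 held 1 FOXO site, 3 GC boxes and 1 CCAAT box. BBC3 held 1 E-box and 1 CCAAT box, BAX held 4 E-boxes, 2 CCAAT boxes and 1 GC box, and BAK1 held 2 GC boxes, 1 CCAAT box and 1 p53 half-site, which shares 1 base with a GC box. Over 35116 promoters of that table, 2.98% held a FOXO site, 5.57% a p53 half-site, 6.34% an E-box, 42.6% a GC box, 32% a CCAAT box and 10.7% a TATA box. None of these matches was linked to a factor here, and a match gives only the letters of the window.

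Transcripts of 4101 cells were summed per library and are given as CPM, counts scaled to the total of the library. The kit reads the 3′ ends of transcripts, so CPM were not divided by length. Totals were 14517579 to 23638242 counts in 479 to 1139 cells per afatinib library, against 22976039 and 28148379 counts in 478 and 1063 untreated cells. Mitochondrially encoded transcripts took 17.2%, 16% and 8.82% of the D3, D6 and D9 libraries, against 7.25% and 7.80% in the untreated libraries, and MALAT1, a nuclear RNA, took 1.67%, 2.10% and 1.08%, against 0.588% and 0.694%. Since levels are relative to all counts of a library, less of a transcript per cell and fewer cells that carry it cannot be told apart in the sums. Of 6 epithelial markers, all were counted in every library, the lowest being CDH1 at 35.6 to 59.1 CPM, and 0 passed in edgeR (1 had an unadjusted p under 0.05, and 3 passed as lower in DESeq2). Of 10 markers of immune, endothelial and stromal cells, only COL1A1 was among the counted genes, at 4.20, 7.78 and 3.64 CPM in afatinib-treated cells and 2.09 and 3.34 CPM in untreated cells.

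BID, MCL1 and BAX were the most abundant members in every library, and HRK was the least abundant. In 9 of 10 members the 3 treated libraries lay on 1 side of both untreated libraries, 7 above and 2 below, where 41.3% and 18.0% of 12145 tested genes did so (59.4% in either direction). Treated and untreated libraries were compared with the quasi-likelihood test of edgeR, in which the 3 days serve as replicates of treatment and p-values were adjusted over all genes tested (Benjamini-Hochberg). At an adjusted p under 0.05, BCL2, BCL2L2, BBC3 and HRK rose and BCL2L1 and BAK1 fell. That is 4 of 10 members up, against 13.1% of all genes tested, and 2 of 10 down, against 10.1% (23.2% in either direction). The calls fell on both sides of the family, with 2 up and 1 down of 4 anti-death members and 2 up and 1 down of 6 pro-death members. The median log2 fold change was 0.61 over the anti-death members, 0.42 over the pro-death members and 0.05 over all genes tested. Every member kept its direction when any 1 library was left out, but without either untreated library 0 members passed in edgeR (5 and 6 had an unadjusted p under 0.05), without D6 only BCL2L1, BCL2L2 and BAK1 did, and without D9 9 members did.

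**Figure D1:**
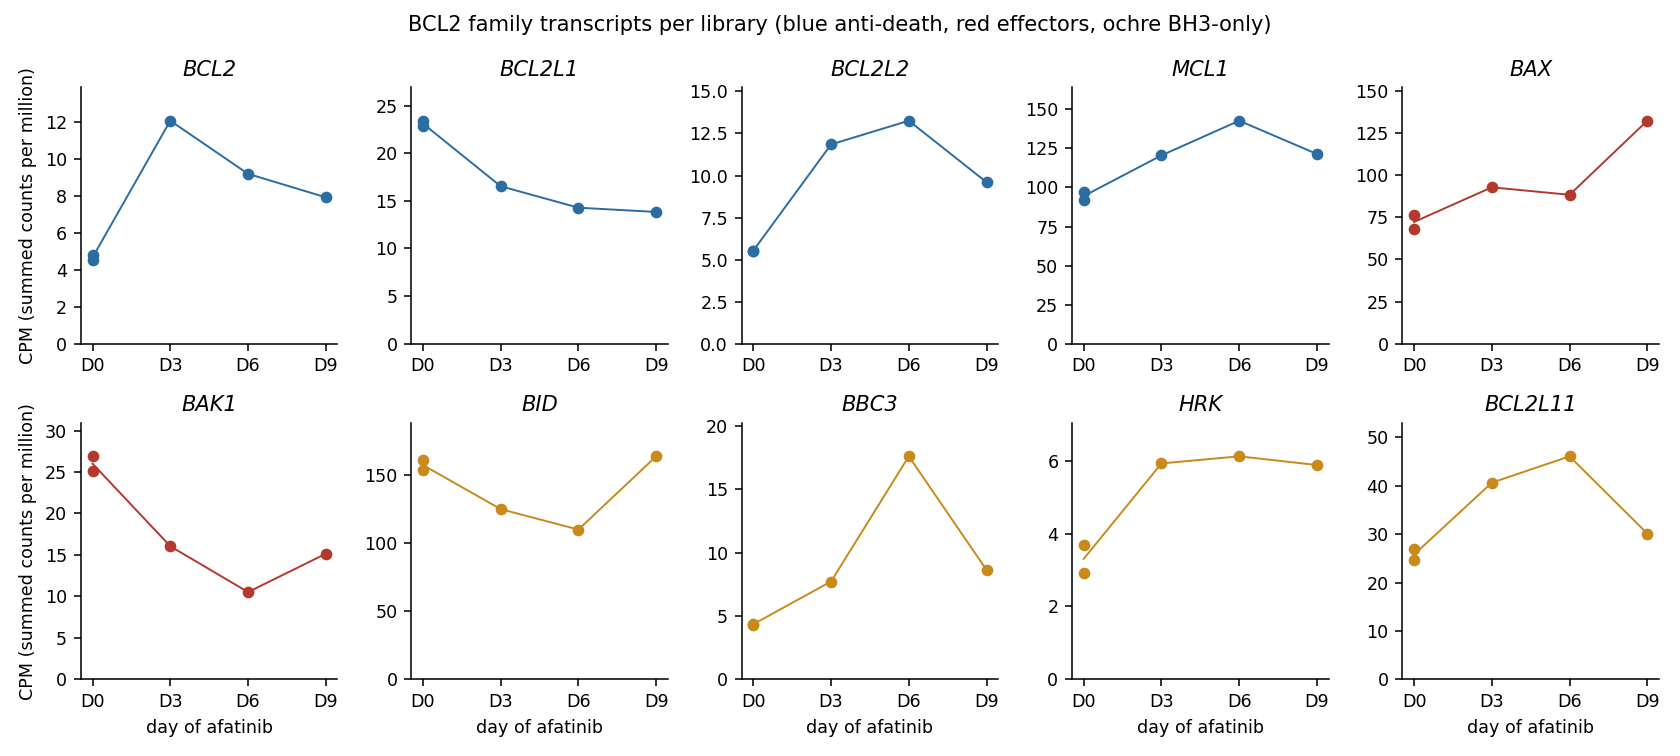
CPM of each BCL2 family member (vertical axes, each starting at 0) by day of afatinib (D0 holds 2 untreated libraries, every other day 1); points are libraries and lines join the day means. All members but BCL2L1, BAK1 and BID lie above both D0 points on each day, BCL2L1 and BAK1 lie below, and BBC3 peaks at 17.6 CPM at D6.

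Among the anti-death members, BCL2 and BCL2L2 were scarce in untreated cells and rose, BCL2L1 fell, and MCL1, by far the most abundant of them, did not pass the test. BCL2, the founding member, had 12.1, 9.18 and 7.91 CPM at D3, D6 and D9, against 4.53 and 4.80 CPM in untreated cells. Its highest treated library was D3 and its lowest D9, and the groups did not overlap. The log2 fold change of treated over untreated cells was 0.91 ± 0.21 (SE; edgeR adjusted p = 0.0223). In cells with under 10% mitochondrial counts it was 0.69 (edgeR adjusted p = 0.0562). Such cells numbered 85, 188 and 857 at D3, D6 and D9, against 379 and 860 in the untreated libraries.

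BCL2L2 had 11.9, 13.3 and 9.60 CPM at D3, D6 and D9, against 5.53 and 5.54 CPM in untreated cells. All treated libraries were higher, with D6 the highest. On the log2 scale treated cells were 0.92 ± 0.20 (SE; edgeR adjusted p = 0.0167) above untreated cells, and 0.68 in cells with under 10% mitochondrial counts (edgeR adjusted p = 0.0854). The gene overlaps the read-through gene BCL2L2-PABPN1 on its own strand, and PPP1R3E, also counted, on the other, and how reads on shared bases were assigned is not given in the sources used here.

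BCL2L1 encodes the long protein BCL-XL and, by another splice choice, a short form that promotes death, and counts at the 3′ end do not separate them. It had 16.5, 14.3 and 13.8 CPM at D3, D6 and D9, against 22.8 and 23.4 CPM in untreated cells. It was lower on each day, with the treated libraries closer to each other than to the untreated ones. BCL2L1 had a log2 fold change of -0.78 ± 0.14 (SE; edgeR adjusted p = 0.00916) and passed also in cells with under 10% mitochondrial counts (edgeR adjusted p = 0.025). After every cell had been thinned to 5000 counts the change was -0.56 and did not pass (edgeR adjusted p = 0.143).

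As BCL2 was higher and BCL2L1 lower in treated cells, their ratio moved further than either level. There were 0.729, 0.643 and 0.572 BCL2 counts per BCL2L1 count at D3, D6 and D9, against 0.198 and 0.205 in untreated cells. BCL2L1 remained the more abundant of the pair in every library.

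MCL1, a short-lived protein that restrains BAK1 and BIM, had 120.5, 142.7 and 121.4 CPM at D3, D6 and D9, against 97.3 and 91.7 CPM in untreated cells. The treated libraries were higher with no overlap, and D6 was the highest, where MCL1 was the most abundant member. The log2 fold change of 0.30 ± 0.16 (SE) did not pass (edgeR adjusted p = 0.210). Without D9 it was 0.34 and passed (edgeR adjusted p = 0.0164), and in cells with under 10% mitochondrial counts it was 0.13 (edgeR adjusted p = 0.456).

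The effectors went separate ways, in that BAK1 fell and BAX did not pass the test over the treated libraries together. BAK1, which resides in the outer membrane, had 16.1, 10.5 and 15.1 CPM at D3, D6 and D9, against 25.1 and 26.9 CPM in untreated cells. Each treated library was below both untreated ones, D6 the furthest. BAK1 had a log2 fold change of -1.04 ± 0.18 (SE; edgeR adjusted p = 0.00872). It was the 1 member that passed after every cell had been thinned to 5000 UMIs (unique molecular identifiers; edgeR adjusted p = 0.029). The values thinned were UMI counts after a batch adjustment, so 1 count need not be 1 molecule.

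BAX, which moves from the cytosol to the membrane when activated, had 92.7, 88.3 and 132.2 CPM at D3, D6 and D9, against 76.4 and 68.0 CPM in untreated cells. D9 stood above the other libraries, and D3 and D6 lay between it and the untreated libraries. The log2 fold change was 0.39 ± 0.21 (SE; edgeR adjusted p = 0.203). BAX has the shortest canonical transcript of the members, 795 bases against 1846 to 6881 bases for the other members, and with an offset for a trend with transcript length its log2 fold change was 0.66 and passed (edgeR adjusted p = 0.0126). With D3 and D6 left out it was 0.68, in a fit with 1 treated library and 1 residual degree of freedom. Both alternatives were chosen after the data were seen. With the length offset BBC3 and HRK did not pass (edgeR adjusted p = 0.0514 and 0.0829). There were 5.78, 8.39 and 8.73 BAX counts per BAK1 count at D3, D6 and D9, against 3.04 and 2.53 in untreated cells.

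Of the BH3-only members, BBC3 and HRK rose, BCL2L11 was higher without passing and BID had no single direction. BBC3 had 7.72, 17.6 and 8.63 CPM at D3, D6 and D9, against 4.40 and 4.30 CPM in untreated cells. The D6 library stood far above the others, and D3 and D9 lay close together, still above the untreated libraries. BBC3 had a log2 fold change of 1.24 ± 0.38 (SE; edgeR adjusted p = 0.0491), and without D6 it was 0.74 (edgeR adjusted p = 0.0567). In cells with under 10% mitochondrial counts BBC3 passed (edgeR adjusted p = 0.028), and with mitochondrial and ribosomal protein genes left out of the totals (0.0579) or in limma (0.0661) the adjusted p did not pass.

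HRK, which binds BCL-XL, had 5.92, 6.12 and 5.88 CPM at D3, D6 and D9, against 2.92 and 3.70 CPM in untreated cells. The 3 treated libraries were nearly level. Its log2 fold change was 0.71 ± 0.21 (SE; edgeR adjusted p = 0.0438). It rests on few counts, from 67 in untreated replicate 1 to 139 at D9. Neither DESeq2 (adjusted p = 0.0562) nor edgeR without mitochondrial and ribosomal protein genes (adjusted p = 0.0589) called it.

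BCL2L11 had 40.6, 46.1 and 30.1 CPM at D3, D6 and D9, against 26.9 and 24.7 CPM in untreated cells. D3 and D6 stood apart from the untreated libraries and D9 was close to them. Its log2 fold change was 0.45 ± 0.20 (SE; edgeR adjusted p = 0.134), and without D9 it was 0.61 and passed (edgeR adjusted p = 0.000918). In the summed counts of cells with under 10% mitochondrial counts it was 0.10 (edgeR adjusted p = 0.669). The share of such cells with BCL2L11 at equal depth, given below, was higher at D3 and D6 than in untreated cells. MIR4435-2HG, also counted, lies over the gene on the other strand.

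BID, which links death receptors to mitochondria once caspase 8 has cut it, had 125.0, 110.0 and 163.8 CPM at D3, D6 and D9, against 153.4 and 161.4 CPM in untreated cells. D3 and D6 lay below the untreated libraries and D9 above them, so BID was the 1 member whose groups overlapped. The log2 fold change was -0.38 ± 0.20 (SE; edgeR adjusted p = 0.189), and without D9 it was -0.57 and passed (edgeR adjusted p = 0.000151).

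Each day was then set against D0 and against the other days in an edgeR fit with the day as a factor. A treated day has 1 library there and is assumed to vary like the 2 untreated ones, so a call asked for an adjusted p under 0.05 and also for a log2 value no nearer to 0 than 1. The 1 residual degree of freedom comes from the untreated libraries. The batch adjustment may have drawn these together, so all p-values of this fit can be too small. The 3 comparisons with D0 share the untreated libraries. At D3, BCL2 was called, with 1.19 ± 0.16 (SE; edgeR adjusted p = 1.38e-12), where 6.28% of all genes tested rose and 4.2% fell. In cells with under 10% mitochondrial counts it had 0.90 and was not called. At D6, BBC3 was called with 1.91 ± 0.15 (SE; edgeR adjusted p = 9.38e-36) and BCL2L2 with 1.16 ± 0.15 (SE; edgeR adjusted p = 3.31e-13), where 6.73% rose, and BAK1 with -1.41 ± 0.15 (SE; edgeR adjusted p = 3.07e-19), where 5.77% fell. After thinning BCL2L2 had 0.87 at D6 and was not called, and BCL2L11 had 1.09 and was. In cells with under 10% mitochondrial counts BCL2L11 had 0.32 at D6 and was not called. At D9 no member reached that size, where 5.08% of genes rose and 7.27% fell. The largest at D9 were BAK1 with -0.92, BCL2L1 with -0.88, BBC3 with 0.85 and BAX with 0.74.

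Between treated days BBC3 alone was called. It was higher at D6 than at D3 by 1.27 ± 0.18 (SE, log2; edgeR adjusted p = 3.12e-10), where 0.452% of all genes rose and 0.772% fell, and lower at D9 than at D6, by -1.06 ± 0.17 (SE, log2; edgeR adjusted p = 2.45e-09), where 0.969% rose and 3.25% fell. D9 against D3 had no member of the required size, the furthest being BAX with 0.56 and BCL2 with -0.56, where 0.993% of genes rose and 4.15% fell. From D6 to D9 the other values with an adjusted p under 0.05, all below the size required, were 0.55 for BAX, 0.54 for BID, 0.49 for BAK1, -0.65 for BCL2L11, -0.50 for BCL2L2 and -0.27 for MCL1 (log2). At D9 BAX, BID and BAK1 were thus above their D6 level and the other 3 below theirs, none by the size required. With the larger spread of the treated libraries in place of that of the untreated ones, the BBC3 differences between days did not pass (edgeR adjusted p = 0.285 for D6 against D3 and 0.166 for D9 against D6). In cells with under 10% mitochondrial counts BBC3 was called at D3 as well, with 1.33. That call rests on 51 BBC3 counts in the 85 such cells of the D3 library. The difference of BBC3 between D6 and D3 was 0.79 in this class of cells, below the size required. After thinning that difference was 0.89 (edgeR adjusted p = 0.119). The mitochondrial share, highest at D3 and D6, moved with these days, and its part in the differences between days was tested no further than this.

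**Figure D2:**
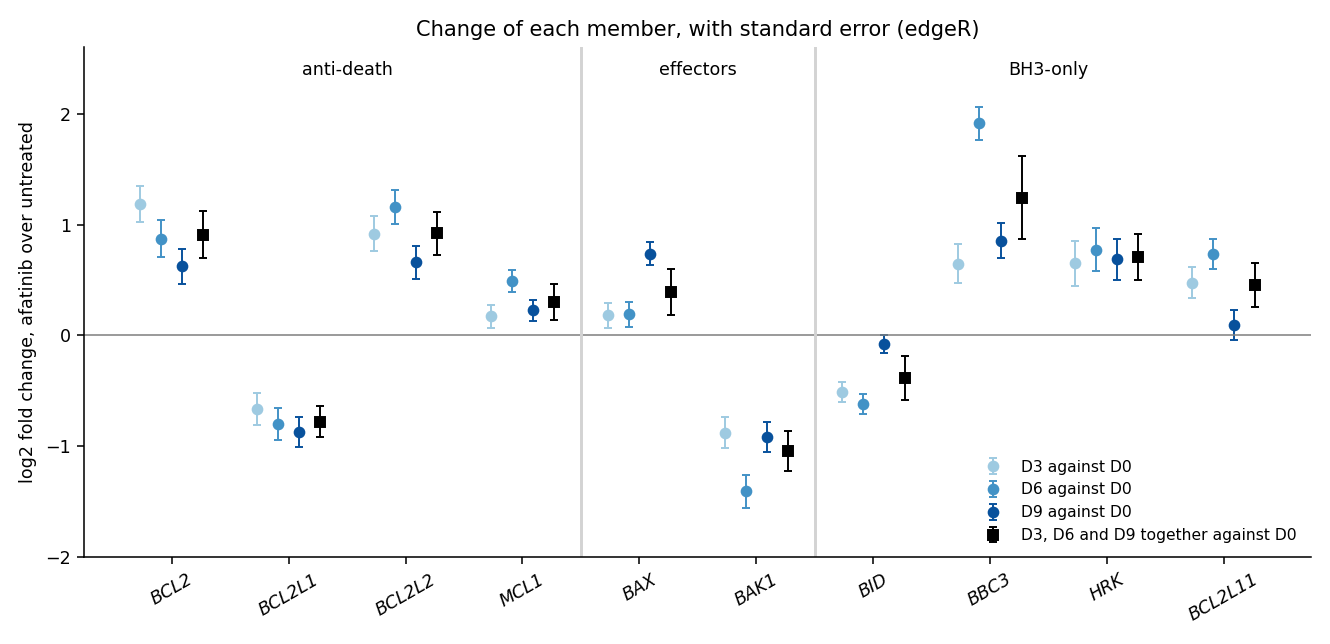
Log2 fold change of afatinib-treated over untreated cells for each member (horizontal axis, by role); circles are D3, D6 and D9 against D0 and black squares the 3 treated libraries together, with bars of 1 standard error from edgeR. BBC3 at D6 (1.91) and BAK1 at D6 (-1.41) are the furthest from 0.

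Within single cells the members were seldom captured, and for a comparison at equal depth every cell was thinned to 5000 of its adjusted UMI counts, with no cell lost. A thinned cell held a UMI of 2 members in the median, in every library. MCL1 was detected in 46.6%, 51.1% and 46.0% of cells at D3, D6 and D9, against 41.2% and 38.2% of untreated cells. BAX was detected in 32.6%, 31.4% and 45.5% of treated cells, against 30.3% and 27.4% of untreated cells. Here too the D9 library stood apart for BAX, and D6 was the highest for MCL1. In cells with under 10% mitochondrial counts MCL1 was instead detected in 35.3%, 33.5% and 44.5% of cells at D3, D6 and D9, against 37.5% and 37.4% of untreated cells. D9 alone was above the untreated libraries there. The shares at D3 and D6 rest on 85 and 188 such cells, and the order of the days was not tested.

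BCL2L11 was detected in 19.8%, 19.96% and 11.5% of cells at D3, D6 and D9, against 10.7% in each untreated library. BBC3 was detected in 3.76%, 8.49% and 4.30% of treated cells, against 3.14% and 2.54% of untreated cells. BAK1 was detected in 7.31%, 5.41% and 6.67% of treated cells, against 12.1% and 10.4% of untreated cells. The treated libraries thus had the order of the summed levels in these 3 members. In cells with under 10% mitochondrial counts BCL2L11 was detected in 24.7%, 17.55% and 10.0% at D3, D6 and D9, against 10.3% and 10.1% of untreated cells. BCL2L1 was detected there in 17.65%, 9.57% and 6.30%, against 10.3% and 10.0%, so D3 alone was above the untreated libraries. These shares at D3 and D6 rest on 85 and 188 cells and were not tested.

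Over the 10 members, the shares of treated and untreated libraries did not overlap in 8, all but BCL2L1 and BID, with 7 higher in treated cells, where 33.4% of all genes tested were, and 1 lower, where 16.5% were. With 3 against 2 libraries an exact permutation test (two-sided) cannot go below p = 0.2, which those 8 gave. Unthinned cells gave other signs. In such cells, where the untreated libraries were deeper (medians of 25252 and 45658.5 UMIs, against 13862 to 22715 at D3 to D9), the mean treated share minus the mean untreated share was -6.37 points for MCL1, -7.86 points for BAX and -3.99 points for BCL2L11, and 8.18, 7.64 and 6.40 points in thinned cells. No cell type that lacks these genes was present, so a background from free RNA could not be measured.

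The balance between the sides was read from summed counts, as a description of these libraries with no test. The 6 pro-death members together had 288.0, 278.6 and 355.8 CPM at D3, D6 and D9, against 289.0 CPM in each untreated library. The 4 anti-death members had 160.9, 179.4 and 152.7 CPM at D3, D6 and D9, against 130.1 and 125.4 CPM in untreated cells. The pro-death sum was thus level at D3, slightly lower at D6 and higher at D9, and the anti-death sum was higher on each day.

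There were 1.79, 1.55 and 2.33 pro-death counts per anti-death count at D3, D6 and D9, against 2.22 and 2.30 in untreated cells. Pro-death members took 64.2% of the members' counts at D3 (exact binomial 95% interval 63.0 to 65.3, counting error only), 60.8% at D6 (59.7 to 62.0) and 70.0% at D9 (69.1 to 70.8), against 68.9% (68.0 to 69.9) and 69.7% (68.9 to 70.6) in untreated cells. D3 and D6 were below the untreated libraries and D9 was beside them. The mean log2 ratio was 0.90 in treated and 1.18 in untreated libraries, and the difference of -0.28 was smaller than the SD of 0.30 between treated libraries.

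BID was the most abundant pro-death member and MCL1 the most abundant anti-death member in every library, with 24.0% to 38.9% and 22.1% to 31.2% of the members' counts. Without that pair the ratio was 4.03, 4.59 and 6.12 at D3, D6 and D9, against 4.13 and 3.78 in untreated cells, so D9 was the highest library and D3 lay between the untreated ones. In cells with under 10% mitochondrial counts the ratio of all 10 members was 2.18, 2.07 and 2.46 at D3, D6 and D9, against 2.34 and 2.37. D3 and D6 were again below the untreated libraries, by less than in all cells, and D9 was above them.

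**Figure D3:**
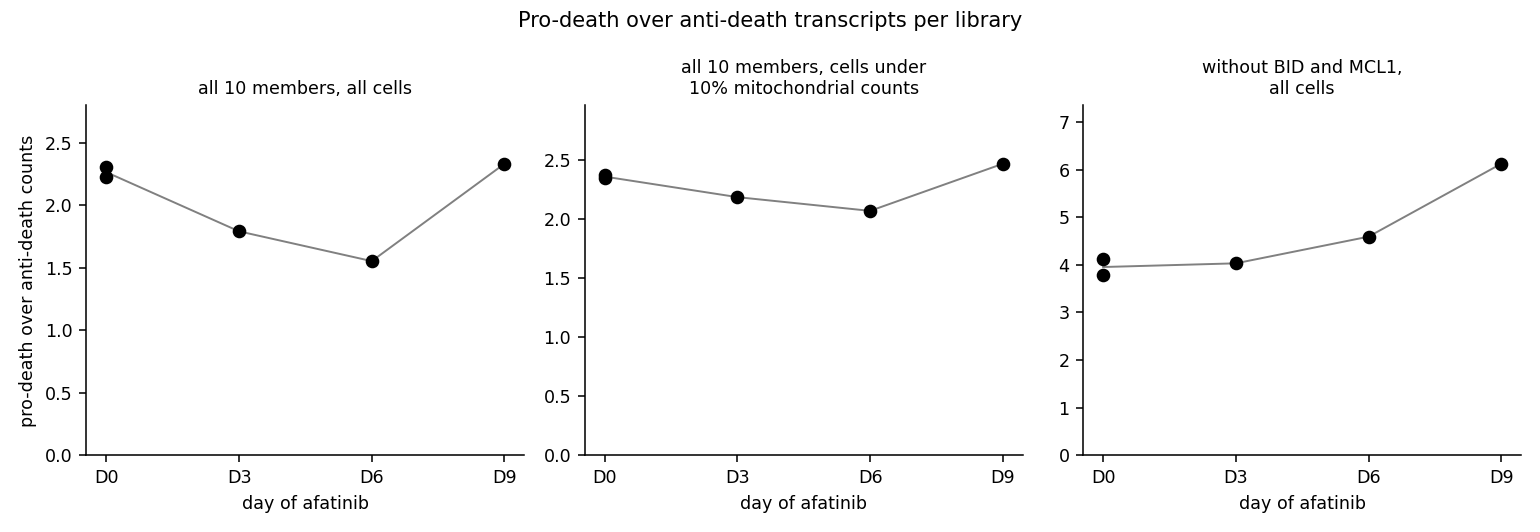
Pro-death over anti-death counts per library (vertical axes, each starting at 0) by day of afatinib, for all 10 members in all cells, for cells with under 10% mitochondrial counts, and without BID and MCL1; points are libraries and lines join the day means. The dip at D6 (1.55 in all cells, 2.07 in the low-mitochondrial cells) is absent without BID and MCL1, where D9 is the highest at 6.12.

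The ratios of single pairs that bind each other or share a task did not follow 1 course. BAX counts per BCL2L1 count were 5.61, 6.18 and 9.56 at D3, D6 and D9, against 3.35 and 2.91 in untreated cells, and thus higher on each day. BAX counts per BCL2 count were 7.70, 9.62 and 16.7 at D3, D6 and D9, against 16.9 and 14.2 in untreated cells, lower at D3 and D6 and within the untreated range at D9. BAK1 counts per MCL1 count were 0.133, 0.0737 and 0.125 at D3, D6 and D9, against 0.258 and 0.293 in untreated cells. BBC3 counts per BCL2L1 count were 0.467, 1.23 and 0.624 at D3, D6 and D9, against 0.193 and 0.184 in untreated cells, and D6 was the only library with more BBC3 than BCL2L1.

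Because treated libraries held more mitochondrial RNA, cells with at least 10% mitochondrial counts were compared with cells under 10% inside each library, with the library as a block in edgeR. BCL2, BCL2L2, MCL1 and BCL2L11 were higher in the cells of high share, and BAX, BAK1 and BID were lower. That is 4 of 10 members up, against 23.4% of all genes tested, and 3 of 10 down, against 26.6%. MCL1 had 125.3, 161.5 and 142.4 CPM in the high-share cells of D3, D6 and D9 and 125.9 and 104.7 CPM in those of the untreated libraries, against 108.6, 101.8 and 117.1 CPM and 93.8 and 90.0 CPM in the low-share cells. It was thus higher in the high-share cells of all 5 libraries (log2 difference 0.34 ± 0.07, SE; edgeR adjusted p = 0.000193).

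BCL2 was also higher in the high-share cells of all 5 libraries, by 0.54 ± 0.16 (SE, log2; edgeR adjusted p = 0.00674). In untreated replicates 1 and 2 those cells held only 15 and 22 BCL2 counts. Without D9 the BCL2 difference was 0.44 and did not pass (edgeR adjusted p = 0.0581). BAK1 was lower in all 5, by -0.51 ± 0.11 (SE, log2; edgeR adjusted p = 0.000703), and so was BID, by -0.24 ± 0.06 (SE, log2; edgeR adjusted p = 0.00299). BAX was lower in 4 of 5, by -0.30 ± 0.08 (SE, log2; edgeR adjusted p = 0.00447). BCL2L1, BBC3 and HRK did not pass, with -0.17, -0.27 and 0.08. For BCL2L11 the high-share cells had 45.3, 52.1 and 34.9 CPM at D3, D6 and D9, with 21.8 and 25.4 CPM in untreated cells, against 29.2, 33.1 and 29.2 CPM and 27.5 and 24.6 CPM in the low-share cells. It was higher in the high-share cells of every treated library and lower in those of untreated replicate 1, and the difference between these was not tested. With cells split at the median share of their own library, 0 members passed in edgeR (5 had an unadjusted p under 0.05), as 0.0578% of all genes tested did. The log2 differences of the members that had passed were then 0.51 for BCL2, 0.17 for BCL2L2, 0.27 for MCL1, 0.28 for BCL2L11, -0.19 for BAX, -0.39 for BAK1 and -0.18 for BID.

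**Figure D4:**
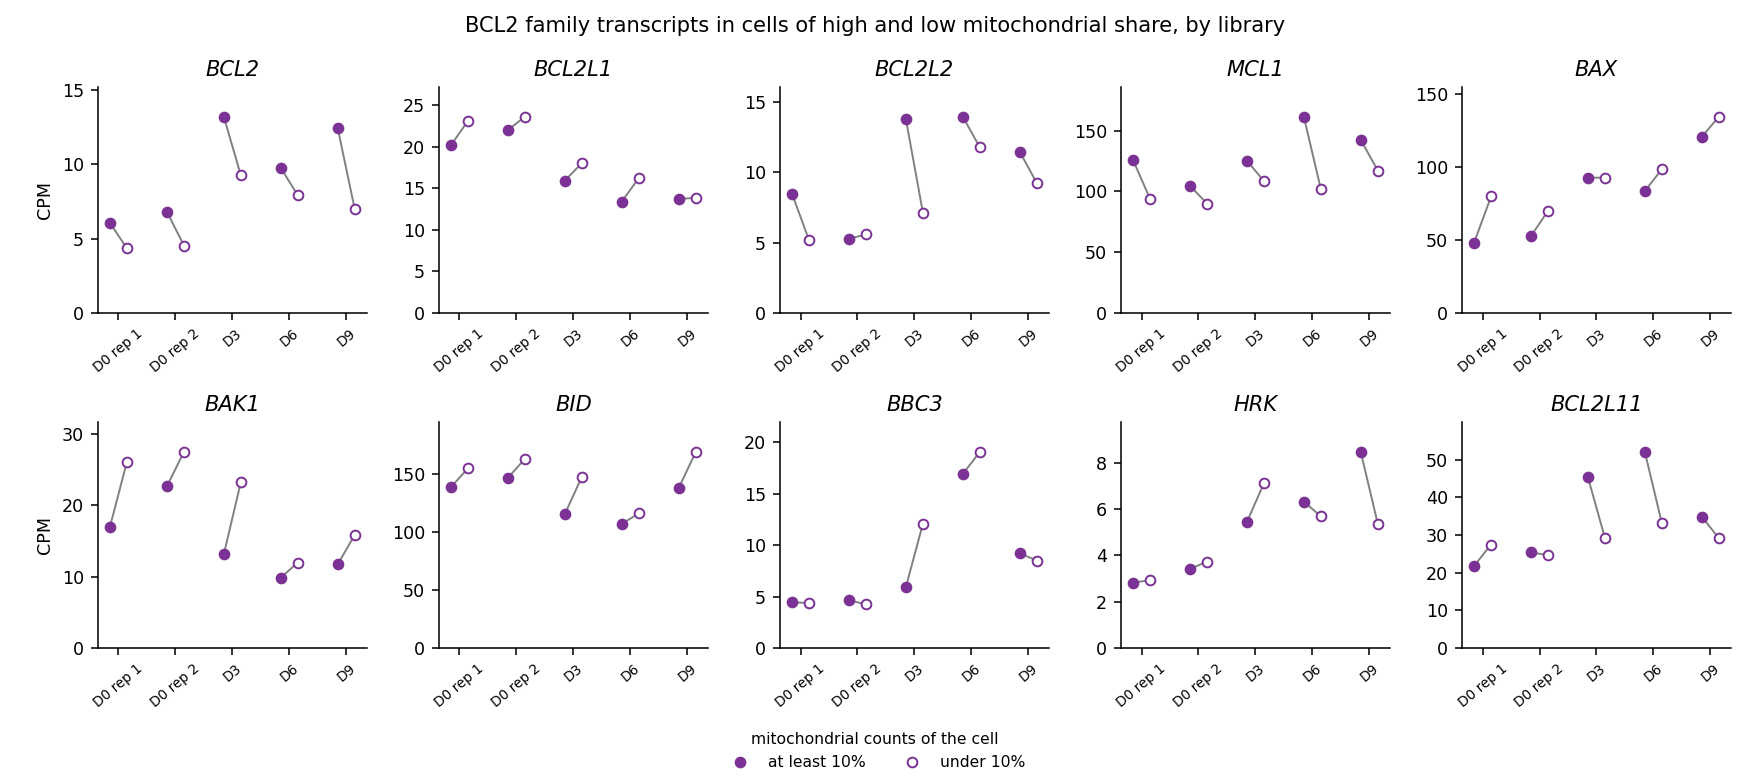
CPM of each member (vertical axes, each starting at 0) in cells with at least 10% (filled) and under 10% (open) mitochondrial counts, by library. MCL1 and BCL2 are higher in the filled points of all 5 libraries, and BAK1, BID and BCL2L1 are lower in all 5.

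Across the cells of a library the members hardly varied together. Over 45 pairs of members and 5 libraries, Pearson's r of thinned cells ran from -0.143 to 0.174, as a description, in which cells share a library and most members are at 0 in most cells. Only MCL1 and BID were detected in at least 30% of cells of every library, and for them the genes of most similar pattern were sought among 5036 genes. For MCL1 these were MALAT1 (mean r 0.169 over 5 libraries), LINC00662 (0.134) and the mitochondrially encoded MT-ND3 (0.132). For BID they were GAPDH (0.139), a glycolytic enzyme, FTH1 (0.138), a ferritin chain, and SEC61G (0.138), a part of the translocon. All of these correlations were weak.

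The rest of the death machinery was counted by lists, read against the 13.1% of all genes that rose and the 10.1% that fell. Of 7 other BCL2 family genes 4 were tested, and 0 of 4 passed in edgeR in either direction, 0 of 4 at an unadjusted p under 0.05 and 0 of 4 in DESeq2 or limma (median log2 fold change -0.25). Of 6 BCL2-like and BNIP genes, 1 fell, BNIP3, a mitophagy receptor, with 39.4, 36.4 and 55.8 CPM at D3, D6 and D9, against 63.6 and 70.2 CPM in untreated cells (-0.75, edgeR adjusted p = 0.0336). Of 7 outer membrane import and channel genes, 1 fell, the channel gene VDAC1, with 199.8, 187.5 and 169.0 CPM, against 301.9 and 297.5 CPM (-0.83, edgeR adjusted p = 0.0115). The treated libraries were below the untreated ones in both genes.

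Downstream of the pore, 1 of 10 apoptosome and caspase genes rose and 1 fell. CYCS, the gene of cytochrome c, had 276.8, 290.6 and 395.8 CPM at D3, D6 and D9, against 606.3 and 595.9 CPM in untreated cells (-1.04, edgeR adjusted p = 0.0141). APAF1, the scaffold that cytochrome c assembles, had 16.5, 11.8 and 10.7 CPM, against 7.09 and 6.86 CPM (0.75, edgeR adjusted p = 0.0372). These calls are near the 13.1% and 10.1% of all genes tested that rose and fell. CASP9, also on the list, was not called, with 5.24, 3.89 and 3.43 CPM, against 3.66 and 3.27 CPM. Of 5 inhibitors of apoptosis 1 fell, BIRC5 (survivin), which also serves in cell division, with 188.3, 167.3 and 149.7 CPM, against 254.4 and 257.1 CPM (-0.74, edgeR adjusted p = 0.0178).

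In the death receptor arm, which reaches the family through BID, 1 of 8 genes rose and 2 fell. CFLAR, which blocks the activation of caspase 8, had 66.2, 67.6 and 61.8 CPM at D3, D6 and D9, against 32.6 and 36.2 CPM in untreated cells (0.78, edgeR adjusted p = 0.00953). CASP8 itself had 20.3, 15.3 and 18.2 CPM, against 25.5 and 25.9 CPM (-0.66, edgeR adjusted p = 0.0184). FADD, the adaptor that recruits it, had 32.8, 22.4 and 29.5 CPM, against 42.7 and 38.1 CPM (-0.66, edgeR adjusted p = 0.0292). The inhibitor was higher and both partners lower in every treated library. Of the genes not called, RIPK1 and TNFRSF1A were also higher in every treated library, and TNFRSF10A, TNFRSF10B and TRADD had no single direction.

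Among 10 tested regulators of transcription of the family 4 rose and 0 fell in edgeR, with 5 and 0 at an unadjusted p under 0.05 and 4 and 0 in DESeq2 (median log2 fold change 0.44). DDIT3, a stress factor known to induce BBC3 and BCL2L11, had 42.0, 72.5 and 73.0 CPM at D3, D6 and D9, against 24.9 and 24.0 CPM in untreated cells (1.22, edgeR adjusted p = 0.0172). Its upstream activator ATF4 had 482.5, 498.1 and 631.4 CPM, against 296.0 and 303.5 CPM (0.70, edgeR adjusted p = 0.0401). TRIB3, a pseudokinase that both induce, had 180.8, 224.4 and 275.0 CPM, against 93.7 and 90.5 CPM (1.16, edgeR adjusted p = 0.0110). These 3 genes of the stress response were higher on each day, with D9 the highest for ATF4 and TRIB3 and D6 and D9 level for DDIT3. A link from them to any member was not tested.

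JUN, a part of AP-1, had 268.4, 288.2 and 317.3 CPM at D3, D6 and D9, against 140.9 and 150.8 CPM in untreated cells (0.86, edgeR adjusted p = 0.0136). Of 10 regulators of MCL1 and BIM protein 2 rose and 0 fell in edgeR, with 2 and 1 at an unadjusted p under 0.05 and in DESeq2. FBXW7, which recruits MCL1 to a ubiquitin ligase, had 29.6, 34.3 and 31.0 CPM, against 14.5 and 15.8 CPM (0.92, edgeR adjusted p = 0.00710). GSK3B, a kinase that marks MCL1 for that ligase, had 83.9, 93.9 and 96.3 CPM, against 56.0 and 49.7 CPM (0.65, edgeR adjusted p = 0.0230). Both were higher in every treated library, as MCL1 transcript was and as 41.3% of all genes tested were. Of the genes not called in edgeR, BAG6 and MAPK3 were also higher in every treated library. DYNLL1 was lower in each, with 480.7, 520.5 and 841.9 CPM, against 937.5 and 917.9 CPM, and the others had no single direction.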

How the data were processed

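MDA-MB-468 transcripts were measured in 3 afatinib libraries and 2 untreated ones. Per the submitters' notes and the study's methods, alignment used Cell Ranger 6.1.2 and GRCh38 (GENCODE v32), cells with fewer than 5000 UMIs, outlying mitochondrial shares or doublet features were dropped, and counts were adjusted for batch with ComBat-seq. The deposited matrix holds UMI counts per gene and cell after that adjustment, all whole numbers, and was handled here under the unit expected counts because they are not raw. The other deposited columns, of kinds other than measurements, hold cell names, gene identifiers and symbols. The test had been chosen for plain counts. An adjustment that draws the untreated libraries together can make p-values too small.

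Counts were summed per library, given by the cell name, and tested with edgeR 4.0.16 (TMM, filterByExpr, quasi-likelihood, R 4.3.3), tested on simulated data beforehand. The simulated counts had no batch adjustment and less spread than the treated against untreated fit. They therefore do not show how well the test performs on these data. The treated against untreated fit had 3 residual degrees of freedom and the day fit 1. Alternatives were DESeq2 1.42.0, limma 3.58.1 (voom), no filter, other gene and cell sets, thinning, a linear day term, and leaving out libraries. SE is the log2 fold change over the root of the F statistic. Lengths and overlaps came from GENCODE 44, and promoters from RefSeq. 1 cell barcode occurred in more than 1 library. The members and lists were chosen with earlier results of these data known. The text names all 10 members, up to 4 called genes of each other list with the largest change, and the 3 most similar genes of each member detected in at least 30% of cells.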

Additional observations from a re-analysis of the deposited data

Results flagged for a closer look

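BBC3 differed between treated days by the test of the difference itself. It was higher at D6 than at D3 by 1.27 on the log2 scale (edgeR adjusted p = 3.12e-10), and the change of D9 against D6 was -1.06 (edgeR adjusted p = 2.45e-09). Each day is 1 library, and neither difference passed with the spread of the treated libraries. D6 against D3 was also not called after thinning to 5000 UMIs (0.89, edgeR adjusted p = 0.119) or in cells with under 10% mitochondrial counts (0.79, below the size required).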

How the results depend on the processing

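No paired analysis was possible because each treated day has 1 library, whose label gives no replicate number. Of the 10 members, 6 passed in treated against untreated cells. With the offset for transcript length 4 of these passed, and BAX as well. 1 passed after thinning to 5000 UMIs, 3 in cells with under 10% mitochondrial counts and 0 with a linear day term in edgeR (4 with an unadjusted p under 0.05), and 0 to 9 when 1 library was left out. All 10 kept their direction under each of these. Over all genes, 1590 rose and 1229 fell. The counts were 642 and 721 after thinning, 153 and 448 with the linear term, 3257 and 3471 without D3 and D6, an alternative chosen after seeing the data, as was the offset for transcript length, and 100 to 3504 and 139 to 3313 when 1 library was left out. With cells weighted equally 786 fell. Between cells of high and low mitochondrial share 7 members passed, 4 after thinning, 0 with a split at the median in edgeR, and 4 to 7 when 1 library was left out. HRK had -0.13 to 0.24 there when 1 library was left out, negative without D9, and BCL2L11 at D9 against D0 had -0.018 in cells with under 10% mitochondrial counts, neither past the threshold. Shares of cells did not overlap in 8 members (49.9% of all genes tested), in 4 unthinned (33.8%) and in 2 in cells with under 10% mitochondrial counts (38%). The log2 ratio of pro-death to anti-death counts differed by -0.28, by 0.29 without BID and MCL1, by -0.078 in cells with under 10% mitochondrial counts, and by -0.44 to -0.15 when 1 library was left out. HRK, BCL2, BBC3 and BCL2L2 had 67 to 276 counts per library, which limits their precision. The causes of these shifts were not tested.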

Other observations

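The counts of the members per cell had a gap, whose cause was not tested. In untreated replicate 1 and in each treated library, 9 of 10 members, all but BID, had no cell with exactly 2 UMIs, and in untreated replicate 2 this was so for 0 of 10. MCL1 had 62 cells at 1 UMI, 0 at 2 and 78 at 3 in untreated replicate 1, and 255, 229 and 152 in untreated replicate 2.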
